A study of Mus musculus with 16 samples.

Results

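The comparison of hippocampi from vehicle injected mice with hippocampi from untreated mice was examined, which shows how far an intraperitoneal injection and handling alone, without a drug or a seizure, were accompanied by other transcript levels. Its members were the arrays whose titles named them as vehicle control at 1 h or as untreated control, 7 arrays of 16. The vehicle group held 3 mice and the untreated group held 4 mice, and RNA of 1 hippocampus was hybridized to 1 array. All 7 mice were male wild type C57BL/6 mice of 3 months, and none had received kainic acid or the MEK inhibitor SL327. Vehicle injected mice were taken 1 h after the injection and were labelled PBS, whereas the protocol names a mix of DMSO and PBS, so the solvent is not certain. Untreated mice were labelled 0 h and received no injection. The work was done in the dark phase at the same time of day. The other 9 arrays came from mice given kainic acid, SL327 or both, and they entered the fit because all 5 groups shared 1 estimate of the spread.

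Immediate early genes are transcribed within minutes of neuronal firing without new protein synthesis. Novelty, handling and injection can raise them in the hippocampus, and stress can also raise circulating glucocorticoids, which act on their own set of target genes. The choroid plexus is a secretory epithelium of the ventricles that lies beside the hippocampus and makes cerebrospinal fluid. Small pieces of it can stay attached to dissected tissue. In bulk tissue, fewer cells of a type and less RNA per cell cannot be told apart.

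Values below are log2 intensities after robust multi-array average (RMA) normalization, and differences are vehicle minus untreated. Of the 20372 probe sets in the deposited table, 8520 with a gene name passed the filter on low values and were tested with limma. The 7 arrays were close in level, with medians over tested probe sets of 8.08 to 8.11 in vehicle arrays and of 8.10 to 8.16 in untreated arrays. The mean correlation of an array with the others of its group was 0.984 in each vehicle array and 0.956 to 0.975 in untreated arrays, lowest in untreated replicate 2. This array stood apart. It was more than 1 log2 unit away from the mean of the other 6 arrays in 47 probe sets, against 0 to 6 in each of the other arrays, and it was the highest of the 7 arrays in 36.9% of probe sets. Untreated values also varied more, with a median SD over probe sets of 0.06 in vehicle arrays and 0.09 in untreated arrays. The filter passed 8 of 11 measured dentate granule cell genes, 6 of 8 CA1 genes and 9 of 12 CA2 and CA3 genes. It also passed 9 of 10 cortical and 5 of 8 striatal genes, and 8520 of 15417 named probe sets. Passing it therefore does not tell hippocampus from neighbouring tissue.

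No gene passed the test between vehicle and untreated hippocampi. At an adjusted p under 0.05, limma called 0 of 8520 probe sets (0%), and the smallest adjusted p was 0.327, for Lyrm9. At an unadjusted p under 0.05, 92 probe sets (1.08%) were higher and 477 (5.6%) were lower in vehicle arrays. The vehicle arrays lay above all untreated arrays in 86 probe sets (1.01%) and below all of them in 481 (5.65%). This excess of lower values moved with the scaling of the arrays. The median difference over all probe sets was -0.03, and 2830 probe sets (33.2%) had a difference above 0. With each array centred on its own median, 251 probe sets were higher and 184 lower at an unadjusted p under 0.05, and 283 lay above and 198 below without overlap.

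Among the 477 probe sets lower at an unadjusted p under 0.05, untreated replicates 1 and 2 were farthest from the vehicle arrays. Relative to the vehicle mean, their medians over these probe sets were 0.21 and 0.25, against 0.08 in untreated replicate 3 and 0.11 in untreated replicate 4. Without untreated replicates 1 and 2, a comparison added after the data had been seen, limma called 0 probe sets at an adjusted p under 0.05, and 54 were higher and 156 lower at an unadjusted p under 0.05. In the 92 probe sets that were higher, the medians were -0.21 and -0.30 in untreated replicates 1 and 2 and -0.09 and -0.11 in untreated replicates 3 and 4.

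**Figure D1:**
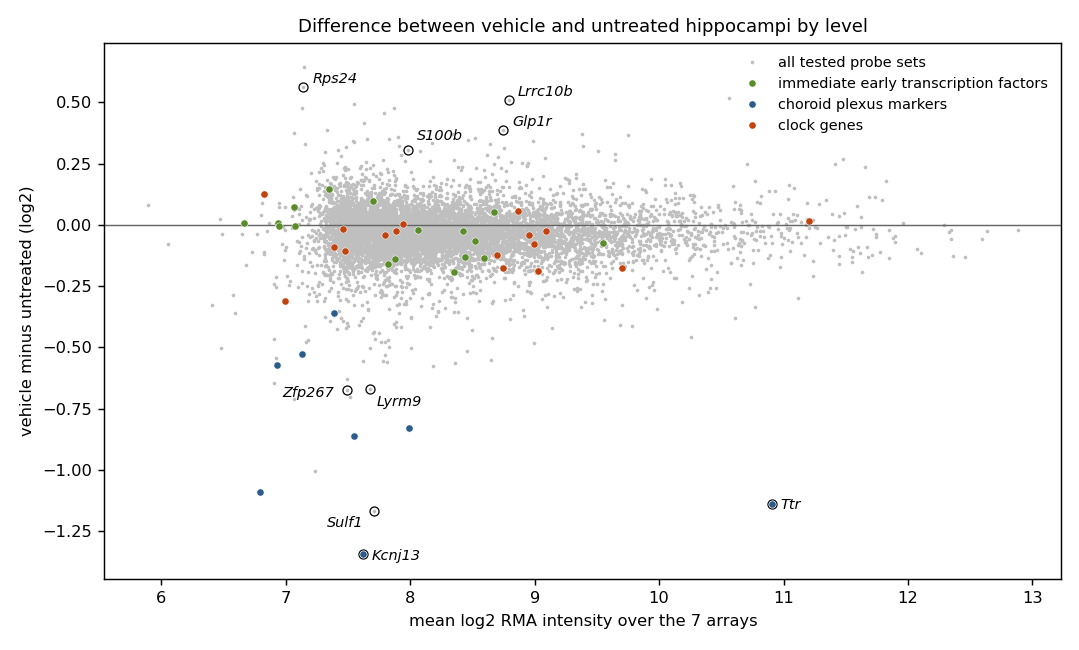
Difference between vehicle and untreated hippocampi (log2, y axis) against the mean log2 RMA intensity over the 7 arrays (x axis) for the 8520 tested probe sets, with 3 gene lists coloured and single genes named. Choroid plexus markers lie among the lowest, down to -1.34 for Kcnj13, whereas immediate early transcription factors lie between -0.19 and 0.14.

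Immediate early transcription factors did not pass the test in either direction. Of 31 genes in the list, 29 were measured and 19 tested, 0 at an adjusted p under 0.05 and 0 at an unadjusted p under 0.05 with limma. In a fit of the 7 arrays alone, 2 of 19 were lower at an unadjusted p under 0.05, Per1 and the zinc finger factor Egr3 (difference -0.13), against 302 of all probe sets (3.54%), and again 0 passed at an adjusted p under 0.05. The median difference of the 19 tested genes was -0.02, against -0.03 over all probe sets, and 7 of 19 lay above 0. The 10 measured genes below the filter leaned the other way, with 8 above 0, 2 below 0 and a median difference of 0.10. Over all 29 measured genes, 15 lay above 0. Fos, which encodes a subunit of the AP-1 factor, was at 6.86, 6.93 and 7.03 in vehicle arrays and at 6.87, 6.51, 7.09 and 7.25 in untreated arrays. The vehicle values fell within the range of the untreated values, with untreated replicate 2 lowest and untreated replicate 4 highest. In all 7 arrays Fos lay below the median of the array over all probe sets, 7.35 to 7.38. It passed the filter through the arrays of mice given kainic acid, SL327 or both, so its level here was low. The difference of Fos was 0.01 with a 95% interval of -0.93 to 0.94, and of -0.35 to 0.37 with the 7 arrays alone. The first interval uses the spread within all 5 groups, the second only that within the vehicle and untreated groups. A change of Fos inside an interval is not excluded by that fit.

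Fosb and Junb, also AP-1 subunits, and Egr1, a zinc finger factor, had differences of 0.07, 0.01 and -0.14. Like Fos, Fosb and Junb lay below the array medians in all vehicle and untreated arrays and passed the filter through the arrays of treated mice. Egr1 was at 7.74, 7.79 and 7.87 in vehicle arrays and at 8.0, 7.81, 7.89 and 8.05 in untreated arrays, and the groups overlapped. Npas4, a factor induced by calcium entry into neurons, was among the most variable of the list. It was at 7.65, 8.12 and 7.42 in vehicle arrays and at 7.47, 7.54, 8.13 and 8.42 in untreated arrays, and its difference of -0.16 had an interval of -1.69 to 1.37, and of -0.75 to 0.43 in the fit of the 7 arrays alone. In both groups some arrays lay between 7.42 and 7.65 and others at 8.12 or above. Nr4a1, a nuclear receptor, was at 8.02, 8.16 and 7.97 in vehicle arrays and at 8.04, 7.73, 8.11 and 8.40 in untreated arrays, which again spanned the vehicle values.

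Only 2 of the 19 tested genes had groups without overlap, both lower in vehicle arrays, where the share over all probe sets was 5.65%. Per1, a clock repressor that neuronal activity and glucocorticoids also induce, was at 8.88, 8.95 and 8.93 in vehicle arrays and at 9.14, 9.11, 8.99 and 9.20 in untreated arrays. Every vehicle array was below every untreated array, and the difference was -0.19 (SE 0.11, limma adjusted p = 0.736). Nr4a3, a nuclear receptor of the Nr4a1 family, was at 8.52, 8.64 and 8.39 in vehicle arrays and at 8.64, 8.66, 8.64 and 8.67 in untreated arrays. The highest vehicle array nearly reached the lowest untreated arrays, and with the arrays centred on their medians the groups overlapped. Below the filter, Klf2 and Atf3 lay higher in all vehicle arrays, both by a small margin. Klf2 was at 7.37, 7.14 and 7.17 in vehicle arrays and at 7.07, 6.86, 7.04 and 7.13 in untreated arrays. The share of all probe sets below the filter without overlap is not given here.

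**Figure D2:**
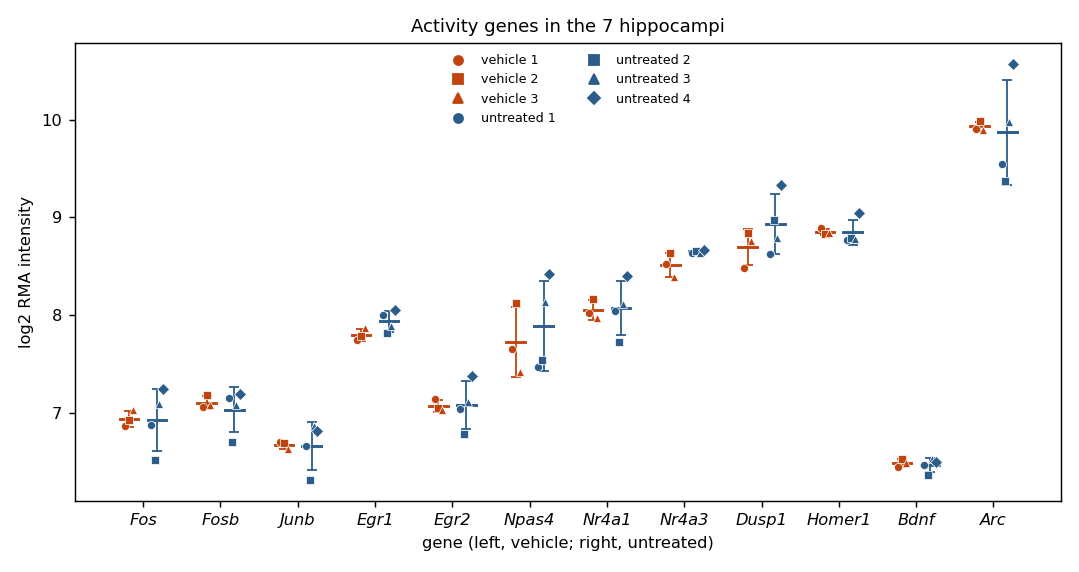
Log2 RMA intensity (y axis) of 12 activity genes (x axis), with 3 vehicle arrays to the left and 4 untreated arrays to the right of each gene. Points are single arrays with 1 symbol per replicate number, horizontal lines are means and bars are SD. Untreated replicate 4 is highest in genes such as Arc, Fos and Homer1, and untreated replicate 2 is lowest in genes such as Fos, Fosb and Junb.

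The spread of activity genes lay mainly among the untreated mice. Arc, a postsynaptic regulator of AMPA receptor traffic, was at 9.90, 9.99 and 9.90 in vehicle arrays and at 9.55, 9.38, 9.97 and 10.57 in untreated arrays. The SD was 0.05 in vehicle arrays and 0.53 in untreated arrays, while the means were 9.93 and 9.87. Untreated replicate 4 was the highest of the untreated arrays in 12 of 19 immediate early transcription factors (63.2%), against 21% of all probe sets, and untreated replicate 2 was the lowest in 14 of 19 (73.7%), against 29.8%. Relative to the vehicle mean, the medians of the list were 0.02, -0.19, 0.06 and 0.15 in untreated replicates 1 to 4. In the 3 arrays from mice given kainic acid these medians were 1.09 to 1.63, so the baseline spread was small beside them. An SD larger in untreated than in vehicle arrays was found in 13 of the 19 genes (68.4%), close to the 71.5% of all probe sets.

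Synaptic and secreted effectors showed the same picture, with 27 of 33 genes tested and 0 at an adjusted p under 0.05 with limma. This list also holds immediate early genes such as Arc and Homer1. The median difference was -0.01 and 12 of 27 lay above 0. Homer1, a scaffold protein of the postsynaptic density, was at 8.89, 8.83 and 8.84 in vehicle arrays and at 8.77, 8.79, 8.78 and 9.04 in untreated arrays. Only untreated replicate 4 was above the vehicle values, and the difference of 0.01 had an interval of -0.13 to 0.15. The secreted neurotrophin Bdnf and the synaptic pentraxin Nptx2 had differences of 0.02 and -0.03. Bdnf, like Fos, lay below the array medians in all vehicle and untreated arrays and passed the filter through the arrays of treated mice. Plk3, a polo-like kinase, was the 1 member at an unadjusted p under 0.05 (5.6% of all probe sets lower). It was at 7.75, 7.62 and 7.74 in vehicle arrays and at 7.86, 7.99, 7.78 and 8.06 in untreated arrays, without overlap, and its difference was -0.21 (SE 0.09, limma adjusted p = 0.73). Dusp1, a phosphatase that inactivates MAP kinases, was at 8.49, 8.85 and 8.76 in vehicle arrays and at 8.63, 8.98, 8.79 and 9.33 in untreated arrays, again highest in untreated replicate 4.

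Glucocorticoid-responsive genes lay above 0 more often than all probe sets, as did several unrelated lists. Of 30 genes, 26 were measured and 21 tested, 0 at an adjusted p under 0.05 with limma, and 14 of 21 (66.7%) had a difference above 0, against 33.2% of all probe sets. The median difference was 0.03, against -0.03 over all. With the arrays centred, 17 of 21 (81%) lay above 0, against 55% of all probe sets. Shares above 0 were also high in oligodendrocyte (78.6%), astrocyte (70%) and CA2 and CA3 genes (66.7%), and low in receptor subunits (10%). With the arrays centred these shares were 85.7%, 100%, 88.9% and 45%, so the shift was not particular to this list. Ddit4, an inhibitor of mTORC1, was the 1 member at an unadjusted p under 0.05 (1.08% of all probe sets higher). It was at 8.56, 8.69 and 8.39 in vehicle arrays and at 8.26, 8.08, 8.46 and 8.45 in untreated arrays. Vehicle replicate 3 lay below untreated replicates 3 and 4, and the difference was 0.24 (SE 0.10, limma adjusted p = 0.73). In the fit of the 7 arrays alone its interval was -0.01 to 0.48, and the 1 member that was higher at an unadjusted p under 0.05 was Zbtb16, against 65 of all probe sets (0.763%).

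Fkbp5, a co-chaperone that restrains the glucocorticoid receptor, was at 7.43, 7.51 and 7.43 in vehicle arrays and at 7.11, 7.28, 7.38 and 7.45 in untreated arrays. Only untreated replicate 4 reached the vehicle values, and the difference of 0.15 had an interval of -0.02 to 0.32. With the arrays centred, the groups of Fkbp5 did not overlap. Zbtb16, a zinc finger repressor, was at 7.93, 7.98 and 7.99 in vehicle arrays and at 7.90, 7.86, 7.82 and 7.88 in untreated arrays, and all vehicle arrays lay above (difference 0.10). The kinase Sgk1, a classic glucocorticoid target, had a difference of 0.03 with an interval of -0.10 to 0.17. Per1 and Dusp1 belong to this list too and had differences of -0.19 and -0.24, so its members did not all lie to the same side.

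Clock genes held more members without overlap than the lists above. The clock is a feedback loop in which Clock and Bmal1 drive repressors of the Per and Cry families, and outputs such as Dbp follow with the time of day. Of 23 genes, 21 were measured and 17 tested, 0 at an adjusted p under 0.05 with limma. At an unadjusted p under 0.05, 2 were lower, against 5.6% of all probe sets. In 5 of 17 genes all vehicle arrays lay below all untreated arrays, against 5.65% of all probe sets, and in 0 they lay above. Dbp, a transcription factor that carries the rhythm to output genes, was at 9.52, 9.64 and 9.63 in vehicle arrays and at 9.71, 9.79, 9.82 and 9.79 in untreated arrays. All vehicle arrays were below, and the difference was -0.18 with an interval of -0.30 to -0.05 (limma adjusted p = 0.73).

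Nr1d2, a nuclear receptor that represses clock genes, was at 7.38, 7.41 and 7.46 in vehicle arrays and at 7.47, 7.63, 7.49 and 7.49 in untreated arrays. The gap between the groups was small, and untreated replicate 2 stood above the others. In the fit of the 7 arrays alone, the clock genes lower at an unadjusted p under 0.05 were Dbp and Per1 in place of Dbp and Nr1d2. In that fit 3.54% of all probe sets were lower. The ubiquitin protease Usp2, whose transcript cycles in many tissues, and the nuclear receptor Rorb had differences of -0.12 and -0.08, with Per1 the fifth gene. With the arrays centred on their medians, Dbp and Per1 stayed without overlap, whereas Nr1d2, Usp2 and Rorb overlapped, against 198 of 8520 probe sets (2.32%) below without overlap. Most other members lay lower too, as 4 of all 17 (23.5%) were above 0, against 33.2% of all probe sets. With the arrays centred, 7 of 17 (41.2%) were above 0, against 55%. The repressor Cry2 had a difference of -0.31 with an interval of -1.12 to 0.50, with vehicle replicate 1 low and overlap between the groups. Per3, a paralog of Per1, had a difference of -0.02. Clock (0.02) and Nfil3, a repressor of the same targets as Dbp (0.13), were among the 4 above 0.

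The promoter of Per1 is printed because this gene, with the same probe set in the clock, activity and glucocorticoid lists, was without overlap. It is the RefSeq promoter of Per1 on GRCm38.p6, chr11:69098699-69098998 on the plus strand, from 250 bases before to 50 bases after the transcription start, and it is 1 of 2 promoters listed for the gene. Capitals mark the E-box CACGTG, the letters that Clock and Bmal1 bind, 166 bases before the start.
Per1: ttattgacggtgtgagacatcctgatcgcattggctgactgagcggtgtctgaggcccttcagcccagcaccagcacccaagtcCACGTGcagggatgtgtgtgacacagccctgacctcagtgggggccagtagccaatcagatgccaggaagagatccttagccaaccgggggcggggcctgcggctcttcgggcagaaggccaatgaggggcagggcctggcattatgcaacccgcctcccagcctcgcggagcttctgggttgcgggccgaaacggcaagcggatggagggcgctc
Both strands were searched for CACGTG, and 7.15% of the 32851 promoters of this length held it, which were promoters of 8.09% of genes. Of the 15 tested clock genes with a listed promoter, 4 held it, which were Bhlhe41, Ciart, Per1 and Tef, and among the 5 genes without overlap only Per1 did. The D-box TTANGTAA, the letters that Dbp and Nfil3 bind, was searched on both strands as well and stood in 2.32% of promoters and 2.72% of genes. Of the 15 clock genes 2 held it, Per3 and Rorb, and among the 5 without overlap only Rorb did. A match describes the letters and not a binding site in use.

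Heat shock chaperones had 11 of 16 genes tested, 0 at an adjusted p under 0.05 with limma, and a median difference of -0.04. Hspa1a, the inducible HSP70, was at 8.17, 8.11 and 8.47 in vehicle arrays and at 8.81, 8.83, 8.50 and 8.59 in untreated arrays. All vehicle arrays lay below, but vehicle replicate 3 came close to untreated replicate 3. The difference of -0.43 had an interval of -0.79 to -0.07 (limma adjusted p = 0.73), and the near-identical copy Hspa1b may share its probes. Bag3, a co-chaperone of HSP70, was the 1 member without overlap in the other direction (difference 0.07). The counts without overlap were thus 1 of 11 lower, against 5.65% of all probe sets, and 1 of 11 higher, against 1.01%. Of 25 inflammatory genes 12 were measured and only Ptgs2, the inducible cyclooxygenase, was tested. Its difference was -0.12 with an interval of -0.91 to 0.68, or of -0.44 to 0.21 with the 7 arrays alone. Of the 11 measured inflammatory genes below the filter, 9 lay above 0 and 2 below, with a median difference of 0.05. Of 17 interferon-induced genes, 0 passed the filter.

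**Figure D3:**
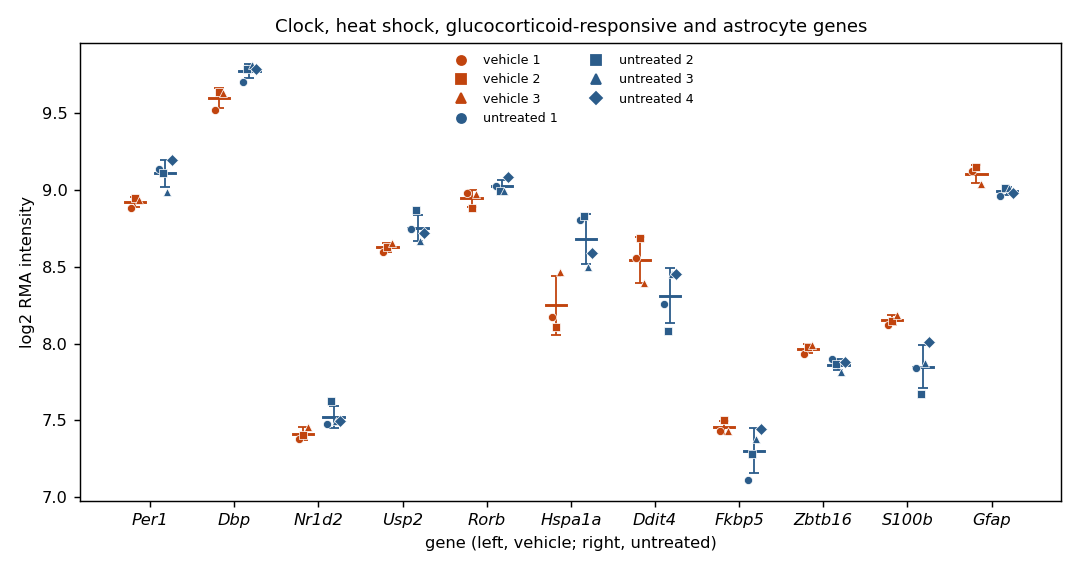
Log2 RMA intensity (y axis) of 11 clock, heat shock, glucocorticoid-responsive and astrocyte genes (x axis), with 3 vehicle arrays to the left and 4 untreated arrays to the right of each gene. Points are single arrays, horizontal lines are means and bars are SD. Per1, Dbp and Hspa1a lie lower in all vehicle arrays, and S100b and Zbtb16 lie higher in all of them.

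The choroid plexus markers had the widest differences of all lists, and Kcnj13, Ttr, F5, Sostdc1 and Kl were among the 7 genes with the largest differences of all tested. Ttr, which encodes the thyroxine carrier transthyretin, was at 9.38, 11.80 and 9.59 in vehicle arrays and at 12.31, 12.55, 11.75 and 8.97 in untreated arrays. Vehicle replicate 2 was high and untreated replicate 4 was low, so the groups overlapped. The difference of -1.14 had an interval of -2.98 to 0.71. The potassium channel Kcnj13 was at 6.14, 7.87 and 6.54 in vehicle arrays and at 9.15, 9.94, 7.67 and 6.02 in untreated arrays, in the same order of arrays within each group, with a difference of -1.34. The ageing suppressor Kl, at 7.38, 7.95 and 7.22 in vehicle arrays and at 8.76, 9.57, 7.83 and 7.22 in untreated arrays, had a difference of -0.83.

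Of 22 choroid plexus markers, 17 were measured and 8 passed the filter, 3 of them when the filter used only the 7 arrays. Passing rested partly on the arrays in which these genes were high, so the count of passing genes is no result. In the test 0 of the 8 reached an unadjusted p under 0.05 with limma, and 0 were without overlap. Differences of the other tested members were -1.09 for the coagulation factor F5, -0.86 for the secreted antagonist Sostdc1, -0.57 for the folate receptor Folr1, -0.53 for Tmem72 and -0.36 for the cation channel Trpm3. Over all 17 measured genes, untreated replicate 2 was the highest of the 7 arrays in 16 and untreated replicate 4 the lowest in 11. Relative to the vehicle mean, the medians of these 17 genes were -0.13, 0.19 and -0.09 in vehicle arrays and 0.69, 1.22, 0.13 and -0.27 in untreated arrays. The range over the untreated mice was thus wider than the distance between the groups. Without untreated replicates 1 and 2 the median difference of the 8 tested genes was -0.06 in place of -0.84. These arrays were the highest in all 8 genes and were chosen after the data had been seen, so leaving them out could only lessen the difference.

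**Figure D4:**
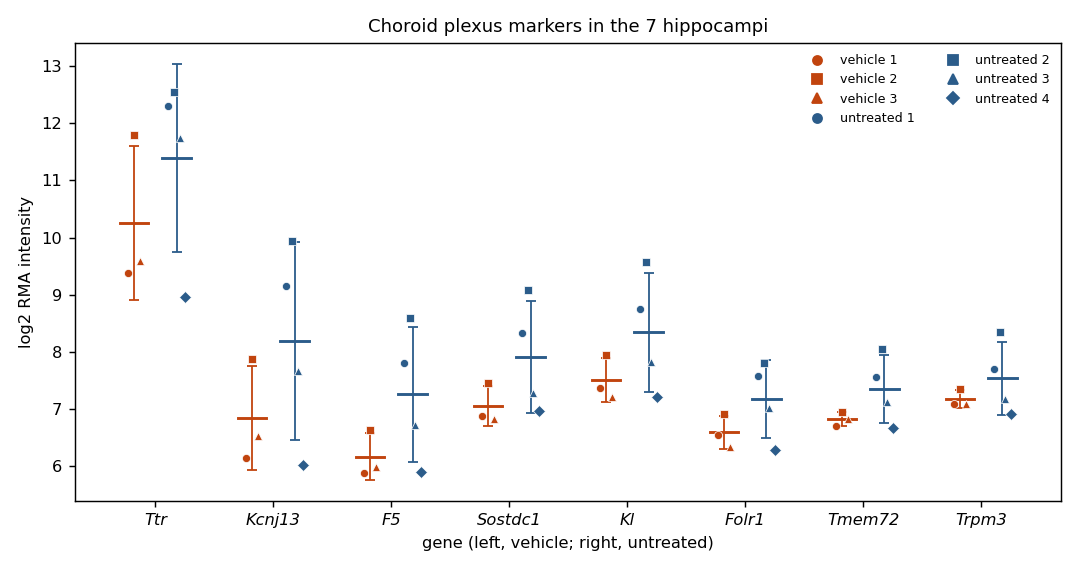
Log2 RMA intensity (y axis) of the 8 tested choroid plexus markers (x axis), with 3 vehicle arrays to the left and 4 untreated arrays to the right of each gene. Points are single arrays, horizontal lines are means and bars are SD. Untreated replicates 1 and 2 are highest in all 8 genes and untreated replicate 4 is among the lowest, whereas vehicle replicate 2 is the highest vehicle array.

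Other genes followed the same order of arrays. Sulf1, a heparan sulfate endosulfatase, was at 6.44, 7.57 and 7.10 in vehicle arrays and at 8.98, 9.24, 7.55 and 7.05 in untreated arrays, with a difference of -1.17 (SE 0.50, limma adjusted p = 0.73). Htr2c, a serotonin receptor of choroid plexus and of neurons, was measured by a pair of probe sets. The more variable one was at 5.92, 7.36 and 6.71 in vehicle arrays and at 8.07, 9.11, 7.06 and 6.42 in untreated arrays, with a difference of -1.0, and the difference in the other was -0.48. Lbp, a lipopolysaccharide binding protein, reached 9.31 in untreated replicate 2, against 7.0 to 8.29 in the other 6 arrays. Sulf1, Htr2c with its more variable probe set and Lbp stood with Ttr and Kcnj13 among the 10 genes with the largest SD over the 7 arrays. Ependymal markers gave no tested gene, and 9 tested leptomeningeal and fibroblast markers had a median difference of -0.12, with list medians of -0.13 to 0.10 in vehicle arrays and of -0.20 to 0.25 in untreated arrays.

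The part of such tissue in the differences of other genes was not tested. Of the 10 most variable genes, Glp1r and Txk did not follow the choroid plexus markers. Glp1r, the receptor of glucagon-like peptide 1, was at 8.80, 8.76 and 9.33 in vehicle arrays and at 8.0, 10.29, 7.95 and 8.07 in untreated arrays, high in untreated replicate 2 and lower in the other untreated arrays than in any vehicle array. Txk, a tyrosine kinase, was at 5.88 in untreated replicate 2 and at 6.93 to 7.68 in the other 6 arrays. Grm5, a metabotropic glutamate receptor, was at 9.50, 9.53 and 9.32 in vehicle arrays and at 9.96, 10.83, 9.36 and 9.29 in untreated arrays. Of 12 measured thalamic and habenular markers 8 had a vehicle mean above the untreated mean, which were all 5 tested genes and 3 of the 7 below the filter, where 33.2% of all tested probe sets lay above 0. The highest tested difference was that of the zinc finger factor Zic1 (0.42, interval -0.32 to 1.15), which was at 7.60, 7.47 and 8.51 in vehicle arrays and at 7.42, 8.10, 7.09 and 7.18 in untreated arrays. Vehicle replicate 3 and untreated replicate 2 were high for Zic1, and the groups overlapped.

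**Figure D5:**
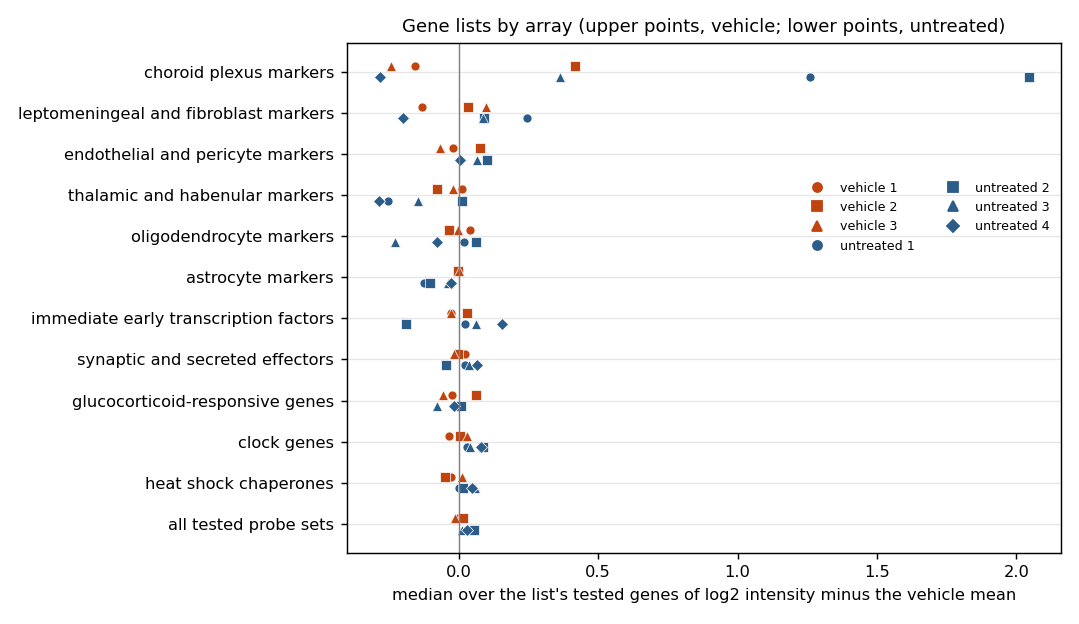
Median over a list's tested genes of the log2 intensity minus the vehicle mean (x axis) for 11 gene lists and all tested probe sets (y axis), with 3 vehicle arrays above and 4 untreated arrays below each line. Choroid plexus markers run from -0.28 in untreated replicate 4 to 2.04 in untreated replicate 2, and immediate early transcription factors from -0.19 to 0.15.

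Astrocyte genes lay slightly higher in vehicle arrays, with 7 of 10 above 0, a median difference of 0.04 and 0 at an adjusted p under 0.05 with limma. S100b, a calcium binding protein of astrocytes, was at 8.12, 8.15 and 8.19 in vehicle arrays and at 7.84, 7.67, 7.87 and 8.01 in untreated arrays. All vehicle arrays lay above all untreated arrays, and the difference was 0.30 (SE 0.07, limma adjusted p = 0.507). Gfap, the filament protein of astrocytes, was also higher in all vehicle arrays, with a difference of 0.11, so that 2 of 10 genes were without overlap in this direction, against 1.01% of all probe sets. Aqp4, the water channel of astrocytes, had a difference of -0.03. Oligodendrocyte markers had a median difference of 0.04, and their list medians were -0.04 to 0.04 in vehicle arrays and -0.23 to 0.06 in untreated arrays, lowest in untreated replicate 3.

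Neuronal markers differed little. Median differences were 0.04 for 8 dentate granule cell genes, -0.00 for 6 CA1 genes, 0.01 for 9 CA2 and CA3 genes and 0.05 for 15 interneuron genes, and 0 of these genes were without overlap, though with the arrays centred Chgb, a granin listed for CA2 and CA3, lay higher without overlap. Receptor subunits for glutamate and GABA had 2 of 20 genes above 0 and a median of -0.05, which was -0.01 with the arrays centred. In the cortical list, 2 of 9 genes were lower without overlap, against 5.65% of all probe sets, Rorb and Ccn2. Ccn2, a matrix protein of the deepest cortical layer, was at 7.59, 7.88 and 7.90 in vehicle arrays and at 8.21, 8.20, 7.93 and 8.32 in untreated arrays, and its difference was -0.38 (limma adjusted p = 0.73). With the arrays centred, Rorb overlapped. In the striatal list, 1 of 5 genes was higher without overlap, against 1.01% of all probe sets. This gene, Syndig1l, was at 8.73, 8.79 and 8.96 in vehicle arrays and at 8.53, 8.19, 8.61 and 8.66 in untreated arrays, all vehicle arrays above, with a difference of 0.33. Among respiratory chain genes, Ndufs3 of complex I and Uqcrc1 of complex III had differences of -0.23 and -0.12 without overlap, 2 of 23 against 5.65% of all probe sets.

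The remaining lists had 0 genes at an adjusted p under 0.05 with limma and 0 without overlap. With the arrays centred on their medians, Egln1 of the hypoxia genes, Dusp4 of the MEK output genes, Chgb of the granins and Eef1a1 of the housekeeping genes lay higher without overlap, against 283 of all probe sets (3.32%). Median differences were -0.04 for 12 MEK output and ERK feedback genes, 0.02 for 11 neuropeptides and granins, -0.01 for 11 stress response and p53 targets, -0.04 for 10 hypoxia genes and -0.01 for 12 genes of cholesterol synthesis. They were -0.01 for 9 microglia genes, -0.10 for 8 endothelial and pericyte genes, -0.08 and -0.03 for 2 dorsal and 5 ventral hippocampal genes, 0.02 for 2 ribosomal protein genes and -0.10 for 6 housekeeping genes. The only tested blood marker, Fech, an enzyme of heme synthesis, had a difference of -0.08. Single genes at an unadjusted p under 0.05 were Nsdhl of cholesterol synthesis (-0.22), the calcium buffer Calb1 of dentate granule cells (-0.15), Bok of CA2 and CA3 (0.20) and the microglial adaptor Tyrobp (0.19), besides Ddit4. Over all probe sets, 1.08% were higher and 5.6% lower at this threshold. Of these genes, only Tyrobp stayed under it in the fit of the 7 arrays alone, where Eef1a1 and the interneuron gene Nos1 also passed it. In that fit 0.763% of all probe sets were higher and 3.54% lower.

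The genes with the largest differences among those without overlap mostly belonged to no list. Lyrm9, a protein with a LYR motif, was at 7.46, 7.22 and 7.19 in vehicle arrays and at 8.05, 8.0, 7.90 and 7.89 in untreated arrays. The groups did not overlap. The difference was -0.67 with an interval of -0.92 to -0.43, and a neighbouring probe set of Lyrm9 was also without overlap, with a difference of -0.14. Zfp267, a zinc finger protein, was at 7.02, 7.39 and 6.93 in vehicle arrays and at 7.70, 7.99, 7.66 and 7.78 in untreated arrays, with a difference of -0.67 (limma adjusted p = 0.449). A further probe set of Zfp267 had a difference of -0.12, with overlap.

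The histone reader Phf21a was at 8.77, 8.59 and 8.79 in vehicle arrays and at 9.52, 9.22, 9.03 and 9.03 in untreated arrays, a difference of -0.48. Vps51, a subunit of the tethering complex of endosome to Golgi transport, was at 9.60, 9.58 and 9.37 in vehicle arrays and at 9.83, 9.81, 9.84 and 9.89 in untreated arrays, a difference of -0.33. Both had an adjusted p of 0.432 with limma. A further probe set of Vps51 had a difference of 0.04, the opposite sign, with overlap. Further probe sets of Phf21a had differences of -0.04 and -0.15, with overlap. Cyp46a1, the brain enzyme that hydroxylates cholesterol for export, was at 8.35, 8.32 and 8.34 in vehicle arrays and at 8.52, 8.48, 8.48 and 8.54 in untreated arrays. The arrays within each group were close, and the difference of -0.17 had an interval of -0.25 to -0.08. Further lower probe sets were those of Supt6, a histone chaperone of elongating transcription (-0.56), Commd1 (-0.50), the tyrosine phosphatase Ptpn14 (-0.50) and the complement regulator Cr1l (-0.48). The probe set of Commd1 lay below the array medians in all vehicle and untreated arrays. Brighter probe sets of Supt6 and Commd1 had differences of -0.05 and 0.03, with overlap.

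In the other direction, Rps24, a protein of the small ribosomal subunit, was at 7.28, 7.50 and 7.60 in vehicle arrays and at 6.62, 7.19, 6.99 and 6.78 in untreated arrays, a difference of 0.56. Lrrc10b was at 9.16, 9.27 and 8.82 in vehicle arrays and at 8.52, 8.79, 8.59 and 8.39 in untreated arrays, a difference of 0.51. Both were higher in all vehicle arrays, with vehicle replicate 3 of Lrrc10b only just above untreated replicate 2. Nop56, a protein of small nucleolar ribonucleoproteins, and Rdh10, which oxidizes retinol, had differences of 0.35 each, but a further probe set of Nop56 was lower in all vehicle arrays (-0.12). Tada1, a subunit of the SAGA coactivator complex, had a difference of 0.38. Of the 20 genes with the largest differences without overlap, 15 had another tested probe set. Of these 19 probe sets, 12 had the same sign and 2 were also without overlap in the same direction, those of Lyrm9 and Ptpn14. Their differences were 0.003 to 0.25 in size, so most of the largest differences were not shared by the rest of the gene.

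Principal components of the 1000 most variable probe sets over the 7 arrays did not separate the groups. PC1, with 54.1% of the variance, had scores of -3.70, -1.46 and -4.72 in vehicle arrays and of 4.27, 13.8, -3.95 and -4.24 in untreated arrays. Untreated replicates 3 and 4 lay among the vehicle arrays, and untreated replicates 1 and 2 lay away from them. The scores averaged -3.29 ± 1.67 in vehicle arrays and 2.47 ± 8.52 in untreated arrays (SD, n = 3 and 4, two-sided exact permutation p = 0.343). PC2, with 12.1%, averaged 1.56 ± 2.37 in vehicle arrays and -1.17 ± 3.58 in untreated arrays (two-sided exact permutation p = 0.314). The smallest p that 35 assignments allow is 0.0286. With the choroid plexus list left out, the exact permutation p of PC1 was 0.4. Kcnj13, Ttr, Htr2c, F5, Sulf1, Kl, Sostdc1 and Lbp were among the 10 probe sets with the strongest weight on PC1.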

How the data were processed

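RNA of 1 hippocampus per mouse was hybridized to Affymetrix mouse exon arrays. The deposited values are log2 intensities that the authors made by RMA with the oligo package, whose versions are not given in the sources used here, and they were used as deposited. Signal, not depth, limits the precision on arrays, as does the number of mice. Samples were grouped by their labels. Gene names came from the platform annotation, which gave 14704 probe sets a single gene and 713 several genes, while 4955 stayed unnamed. As in the methods, a named probe set was tested if it exceeded the median of the array in 3 or more of 16 arrays. The step of the methods that removes categories other than main could not be repeated, since the files used here name no category.

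Group means of 5 treatments were fitted in R 4.3.3 with limma 3.58.1 (11 residual and 3.2 prior degrees of freedom), with two-sided tests and Benjamini-Hochberg adjustment over 8520 probe sets of 7565 genes. The fit was tested on simulated data. Intervals are at 95%. PC scores were compared by exact permutation. For each gene of a list the probe set with the highest mean over all arrays was used.

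The comparison, the 33 lists with 624 entries and the alternatives were chosen with earlier results of these data known. Named genes were the 10 largest differences in each direction among probe sets with 1 gene and without overlap, the 10 smallest p, the 10 largest SD over the 7 arrays, and of each list the first 4 tested genes and those without overlap. Npas4, Nr4a1, Egr2, Klf2, Atf3, Dusp1, Ddit4, Clock, Nfil3, Cry2, Egr3, Egln1, Dusp4, Chgb, Eef1a1, Nos1, Trpm3, Tmem72, Grm5, Nsdhl, Calb1, Tyrobp and the motif genes were added by hand once their values were known. Alternatives concerned the filter, the annotation, the scaling, the arrays in the fit, the variance model, the replicate number as a block, arrays left out and 1 probe set per gene. The comparison without untreated replicates 1 and 2 was added after the data had been seen.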

Additional observations from a re-analysis of the deposited data

Results flagged for a closer look

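Among the 180 values of named genes examined in the 4 untreated arrays, 15 had 1 array far from the other 3. Chance gives about 1 in 20 for values not chosen by their spread. The named genes were partly chosen by spread or lack of overlap in these same arrays, so that rate is no fair measure here. Of the 15, 11 were in untreated replicate 2. This array was high for Glp1r (10.3), Nr1d2 (7.63), Vegfa (9.31), Prkcd (7.78), Nectin3 (7.93), Aqp4 (9.33), Gria3 (9.94), Ndufa9 (9.9995), Ndufs3 (8.26) and Tfrc (8.29), and low for Txk (5.88). Untreated replicate 4 was high for Homer1 (9.04) and Gria4 (8.28), untreated replicate 1 was low for Tada1 (6.36), and untreated replicate 3 was low for Rgs9 (7.42). All these values are log2 intensities. Tada1, the clock gene Nr1d2 and the respiratory chain gene Ndufs3 were among the genes without overlap named above. The causes were not tested.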

How the results depend on the processing

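In the 28 alternatives the count at an adjusted p under 0.05 was 0, except that Lyrm9 was called lower without replicate 1 of SL327 alone (adjusted p = 0.0282) and without replicate 3 of SL327 alone (adjusted p = 0.0384), so the count over arrays left out was 0 to 1. At an unadjusted p under 0.05, the 92 higher and 477 lower probe sets became 222 and 621 without the filter, 152 and 503 with unnamed probe sets, 251 and 184 with centred arrays, 211 and 224 with quantile normalization, 65 and 302 in the 7 arrays alone and 54 and 156 without untreated replicates 1 and 2. Leaving out 1 array gave 52 to 192 higher and 273 to 894 lower. The lower count was 309 without untreated replicate 1, 305 without replicate 2, 894 without replicate 3 and 273 without vehicle replicate 3, and the higher count was 52, 52, 192 and 154 without untreated replicates 1, 2, 3 and 4 and 57 without vehicle replicate 2. The cause was not tested beyond the arrays left out. With a replicate block, 150 were higher and 661 lower, and 0 passed at an adjusted p under 0.05. Deviations of equal numbers correlated at 0.06, 0.17 and 0.08 for replicates 1, 2 and 3. These values were the highest for vehicle replicates 1 and 2, whereas vehicle replicate 3 correlated best with untreated replicate 4 (0.21). Whether equal numbers stand for a shared batch was not tested. Of 3946 values of named genes under alternatives 2 crossed the threshold, both for Lyrm9, and 212 in 62 results changed sign without being called. Of 836 list medians 67 in 22 lists changed sign. The PC scores kept their direction. The spread of the treated groups, array signal and 3 against 4 mice limit what could be seen.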
